A study of Sus scrofa with 8 samples.

Results

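Open chromatin at the ends of protein-coding genes was described in porcine muscle satellite cells, the stem cells that build and repair skeletal muscle fibres. ATAC-seq marks open chromatin by letting a transposase cut accessible DNA, and runs of cuts are called as peaks. Peaks of 8 libraries on chromosomes 1 to 18 and X were merged wherever they shared 1 bp, which gave 178498 regions in the Sscrofa11.1 build. The members described here are the 19068 regions within 1 kb of either end of a protein-coding gene in the RefSeq gene table of that build. A further 2945 regions lay within 1 kb of the end of a long non-coding RNA gene, 84063 lay elsewhere inside genes and 72422 lay between genes.

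The 4 groups were cells labelled WT or CBP, sampled at 0 h as proliferating cells or at 60 h as differentiating cells, with 2 libraries in each group. The labels give muscle as tissue, muscle satellite cell as cell type and C3H as cell line for all 8 libraries, and C3H is a name that the labels attach to Sus scrofa samples without more detail. A treatment note shared by all libraries names SGC-CBP30, an inhibitor of the CBP and p300 bromodomains, at 5 uM/ml, with an exposure of 48 h for proliferating and 60 h for differentiating cells. Whether the CBP label marks the cells that received it is not given there. Nor is it given whether replicates are separate cultures or animals, so the p-values below reflect the spread of these libraries alone, which may be technical.

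A gene's promoter lies at its start, where RNA polymerase II and the general transcription factors assemble on DNA that is kept free of nucleosomes. Promoters of genes that most cells use, often rich in CpG, tend to be open whether or not the cell divides or differentiates, whereas enhancers far from genes are more particular to cell type and stage. CBP, encoded by CREBBP, and its relative p300, encoded by EP300, acetylate histones at promoters and enhancers and take part in MYOD1-driven differentiation. The gene table used here gives the 2 outer positions of each gene and no strand, exons or introns. A gene end is therefore either the start or the finish of a gene, and the ends are called lower and higher by their chromosome position.

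Of 19484 protein-coding genes, 15382 had a region within 1 kb of an end. In 10787 of them the region was at 1 end only, in 4595 both ends had a region, and 438 genes were short enough for 1 region to reach both. An end was called in all 8 libraries for 13146 genes, or 67.5% of genes, and in no library for 4102, or 21.1%. Among genes with a region called in all 8 libraries, 11318 had it at 1 end and 1748 had one at both.

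Regions at gene ends were mostly shared by every group. All 8 libraries called 12550 of the 19068, or 65.8%, against 23.9% of the 159430 regions elsewhere and 28.3% of all merged regions. The share was 39.1% at ends of long non-coding RNA genes, 23.7% elsewhere inside genes and 23.5% between genes. At the other extreme, 1844 gene-end regions, or 9.67%, were called in a single library, against 24.1% of the regions elsewhere. The replicates of at least 1 group differed at 27.8% of gene-end regions and at 60.1% of the others.

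**Figure D1:**
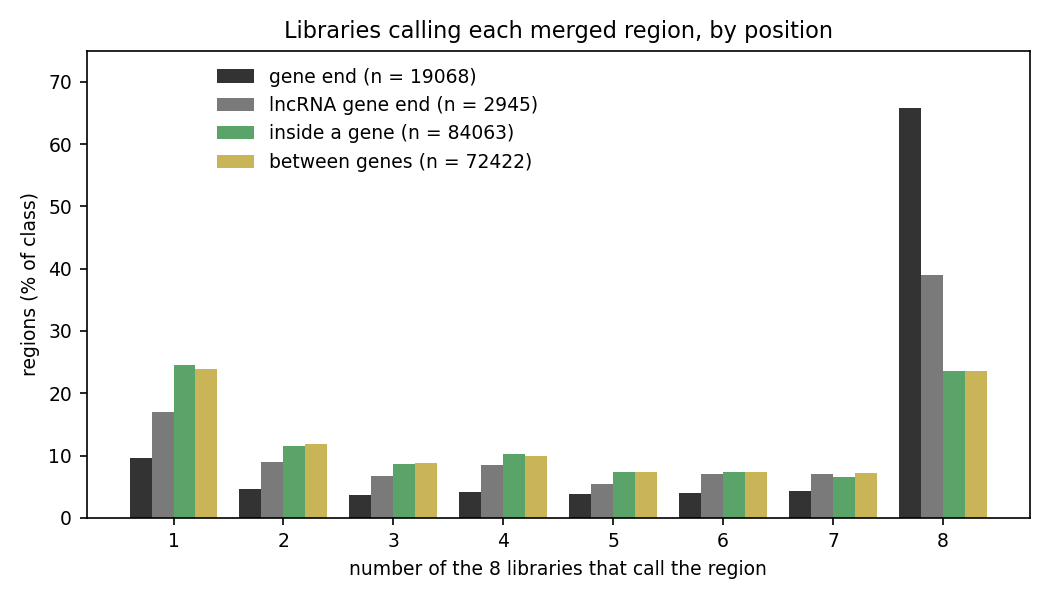
Share of merged regions (vertical axis, percent of each class) by how many of the 8 libraries called them (horizontal axis), for gene-end regions, ends of long non-coding RNA genes, the rest of genes and the space between genes. Gene-end regions stand at 65.8% under 8 libraries, and the classes inside and between genes follow each other closely at every number.

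Peak summits clustered tightly at the gene boundary itself. In all 8 libraries the fullest 100 bp step was the one from 100 bp outside the gene up to its end, and it held 2.32% to 2.54% of a library's summits at 0 h and 3.48% to 3.76% at 60 h. Those shares were 20.96 to 23.3 times the mean of the steps 4 to 5 kb away at 0 h, and 33.5 to 35.9 times at 60 h. Between 52.6% and 54.4% of the summits within 1 kb lay on the gene's side of its end. These shares are of lists that were longer at 0 h. As numbers of summits the step held 3030 to 3171 at 0 h and 3096 to 3173 at 60 h, which overlap.

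**Figure D2:**
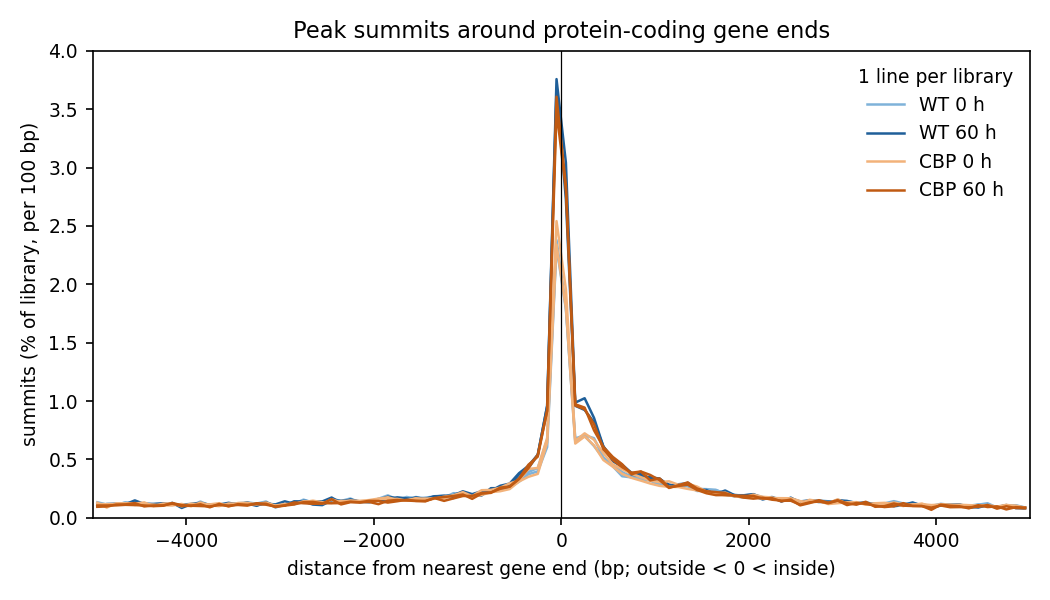
Summits per 100 bp step (vertical axis, percent of all summits of a library) by distance from the nearest protein-coding gene end (horizontal axis, bp, negative outside the gene), 1 line per library. The 4 libraries at 60 h rise to between 3.48% and 3.76% beside the end and the 4 at 0 h to between 2.32% and 2.54%.

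Members that covered the gene end differed from those beside it. Of 11821 regions that covered an end, 86.5% were called in all 8 libraries, and their median merged width was 1529 bp. Of 7247 that came within 1 kb without covering an end, 32.1% were called in all 8, with a median width of 668 bp. Regions within reach of several genes were also more widely shared: 63.8% of the 16299 regions near 1 gene, 77.4% of the 2675 near 2 genes and 90.4% of the 94 near 3 or more were called in all 8 libraries. Merged width, which grows with the number of libraries that call a region, moved with all of these shares, and its part in them was not tested.

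Position along the genome made little difference. On the X chromosome 64.5% of 603 gene-end regions were called in all 8 libraries, against 65.9% of 18465 on the autosomes. The lowest share of a chromosome was 61.6%, on chromosome 11, and the highest 69.9%, on chromosome 13. Regions whose linked genes had only a provisional LOC symbol were called in all 8 libraries in 50.5% of 1159 cases, against 66.8% of the 17909 with a named gene.

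Gene families differed widely in how often an end was open. These families were picked by symbol with their values in view, and are given as a description. An end was called in all 8 libraries for 46 of 47 genes with an NDUF symbol, which encode subunits and assembly factors of respiratory complex I, for 69 of 71 mitochondrial ribosomal protein genes, for 75 of 79 cytosolic ribosomal protein genes and for 36 of 39 proteasome genes. For genes with a ZNF symbol, mostly zinc finger transcription factors, the count was 217 of 254. Solute carriers, with 240 of 350, and collagen chains, with 28 of 42, stood near the 67.5% of all genes.

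Other families stood below the 67.5% of all genes, HOX genes among them with 23 of 36, or 63.9%. Potassium channel and related genes with a KCN symbol had an end called in all 8 libraries in 51 of 92 cases, and chemokines in 14 of 28. Keratins, the filament proteins of epithelia, had 4 of 35, type I interferons 7 of 33 and beta-defensins, antimicrobial peptides of epithelia, 1 of 18. No bitter taste receptor of 13 had an end called in all 8, and 11 of them had none called in any library. Interferon, beta-defensin and taste receptor genes lie in clusters of similar copies, where short reads are hard to place, so their counts are uncertain.

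The 6 strongest members covered a gene end and were 1349 to 1931 bp wide. GALC, which encodes a lysosomal enzyme of galactolipid breakdown, had a region at chr7:109960695-109962124 whose authors' −log10 q, the strength of the strongest peak there, ran from 88.4 in WT 60 h replicate 2 to 120 in WT 0 h replicate 2. The next in strength were regions at ZNF200, PDE6D, MED19, a Mediator subunit, FIS1, a mitochondrial fission protein, and SEC23B, a COPII coat protein. These 6 were chosen as the members with the highest within-list rank in their weakest library. The lowest −log10 q in any of them was 70.7, in SEC23B in WT 60 h replicate 2.

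The 5 widest members spanned 3831 to 3979 bp. They lay at KIRREL, a nephrin-like adhesion receptor, at E2F3, a transcription factor of the cell cycle, at SLC7A6, at CDH11, a mesenchymal cadherin, and at MICAL1. E2F3, at chr7:15793051-15796986, was also strong, with −log10 q between 30.5 and 52.1. KIRREL and CDH11 were wide at lower strength, with ranges of 13.1 to 25.7 and 13.9 to 19.3.

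At 60 h fewer gene-end regions were called than at 0 h, and far fewer regions elsewhere. The libraries called 16285 and 16826 of the members in WT 0 h, 16975 and 16027 in CBP 0 h, 14286 and 14052 in WT 60 h, and 14390 and 14325 in CBP 60 h. The 4 libraries at 0 h were all above the 4 at 60 h. Proliferating cells averaged 16528 ± 447 called members and differentiating cells 14263 ± 147 (SD, n = 4 each), which is 0.863 times as many (two-sided exact permutation p = 0.0286, the smallest that 4 against 4 libraries allow).

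The drop was steeper away from gene ends. The share of members called was 86.7% ± 2.34 at 0 h and 74.8% ± 0.772 at 60 h, and the share of other regions called was 66.6% ± 4.48 and 41.8% ± 1.75 (SD, n = 4 each). The gap between the 2 classes widened from 20.04 ± 2.19 points in proliferation to 33.02 ± 1.00 in differentiation (SD, n = 4 each), by 12.98 points (two-sided exact permutation p = 0.0286). Both shares are of regions merged from these same lists, which were longer at 0 h. Regions found only at 0 h thus lower the 60 h shares by construction, and values from lists of equal length follow below. Peaks at gene ends were wider than others at both times, with a median of 1107 bp ± 56.1 at 0 h and 966 bp ± 19.6 at 60 h (SD, n = 4 each, two-sided exact permutation p = 0.0286). Other peaks had medians of 552 and 486 bp.

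**Figure D3:**
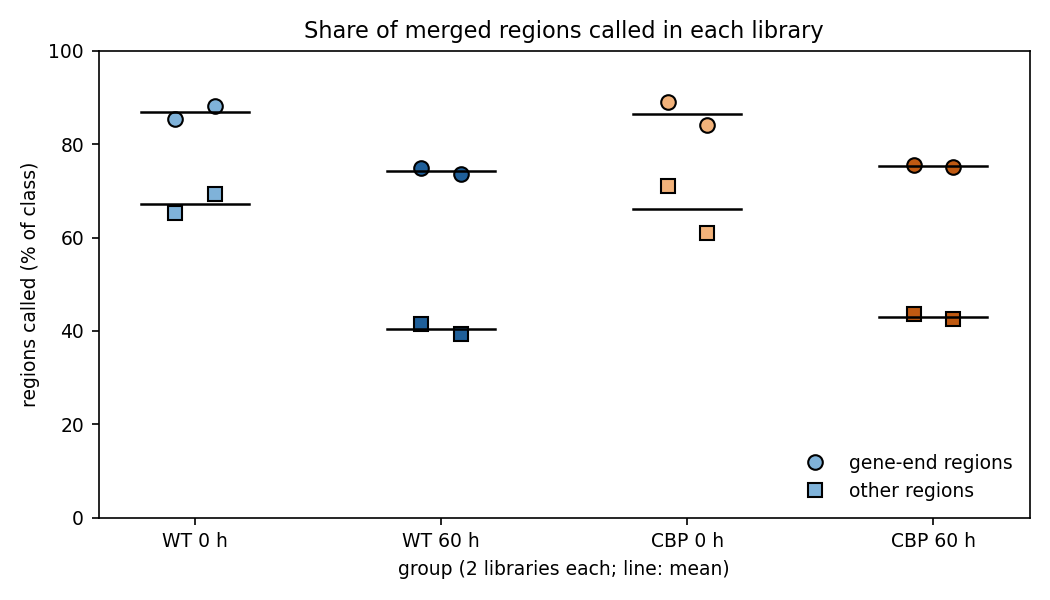
Share of merged regions called in each library (vertical axis, percent of the class) by group (horizontal axis), with circles for gene-end regions, squares for other regions and lines for the mean of 2 libraries. Gene-end regions go from 84.1% to 89.0% at 0 h down to 73.7% to 75.5% at 60 h, and other regions from 61.0% to 71.0% down to 39.5% to 43.5%.

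The length of the lists and the depth moved with time. The libraries had 121757 to 135528 peaks at 0 h and 82696 to 88871 at 60 h, and their relative depth, recovered from the deposited values, was 1.43 to 2.08 and 1 to 1.21 times that of the shallowest. With the 82696 strongest peaks of each library, the number of members called was 85.8 higher at 60 h (two-sided exact permutation p = 0.229), opposite in direction to the full lists. The gap between classes was then still 3.05 points larger at 60 h (two-sided exact permutation p = 0.0286). With peaks scored again at 1 common depth, the drop in members called was in the same direction at the same p.

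Strength within each list went with position. When each list was divided into 10 classes of equal size by strength, 44.2% to 48.0% of the strongest class were at gene ends at 0 h and 60.8% to 69.6% at 60 h. The classes are larger in the longer 0 h lists. With the same 8269 strongest peaks from each library, a setting chosen after seeing the data, the ranges were 51.1% to 56.2% at 0 h and 61.7% to 71.3% at 60 h. In the weakest class the range over the 8 libraries was 6.33% to 9.66%. A gene-end peak of a 0 h list was also found more often at 60 h than another peak of the same strength class. In class 5, counted from the weakest, 71.0% of gene-end peaks and 48.7% of other peaks from 0 h were found in a 60 h library of the same label, and gene-end peaks were ahead in 8 of 8 list pairs. For 60 h peaks sought in the longer 0 h lists of the same label, class 5 gave 97.2% and 92.1%, a smaller gap. The part of list length in these gaps was not tested. In the strongest class of 0 h peaks sought at 60 h the means were 99.98% and 99.5%. Between replicates class 5 gave 94.2% and 90.3%, and between labels at the same time 90.6% and 81.6%. Peaks at gene ends were wider than others, and the part of width in these values was not tested.

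**Figure D4:**
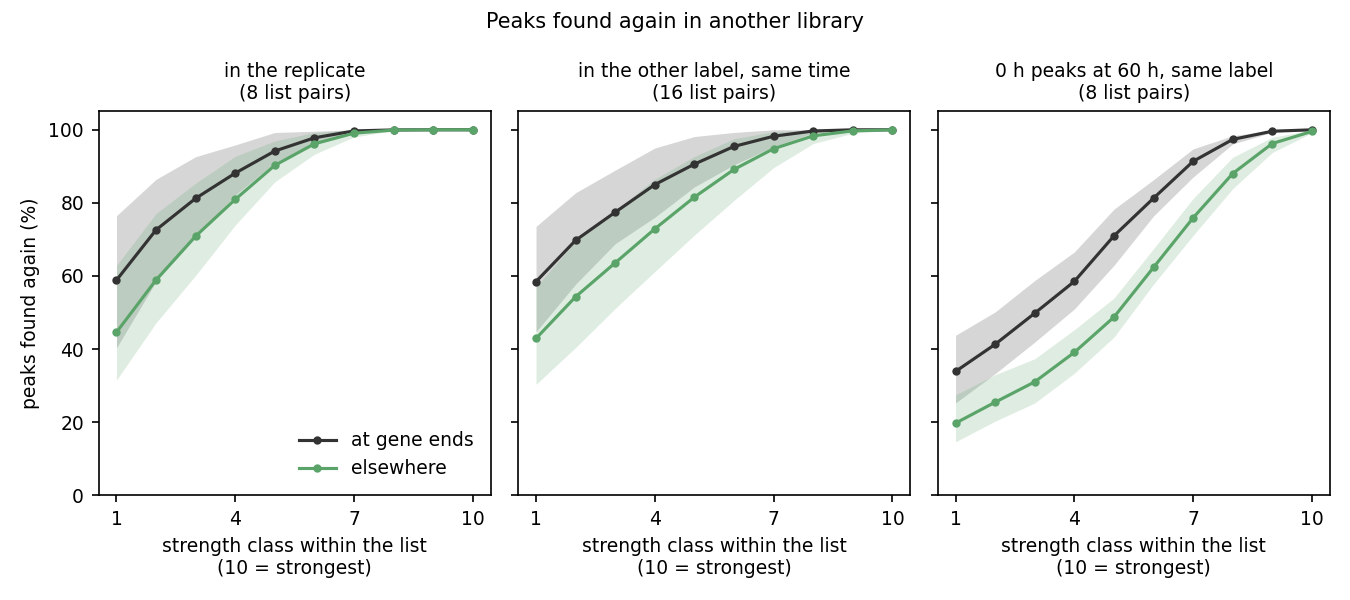
Share of peaks found again in another library (vertical axis, percent) by strength within their own list (horizontal axis, 10 classes, 10 the strongest), at gene ends and elsewhere. Lines are means over list pairs and bands the range, and the classes are farthest apart for 0 h peaks sought at 60 h, at 71.0% and 48.7% in class 5.

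Pairs of libraries shared more of their gene-end calls than of their other calls. The Jaccard index, the regions called in both libraries over those called in either, was 0.891 to 0.896 for the 4 replicate pairs at gene ends and 0.646 to 0.733 elsewhere. For libraries of other labels at the same time it was 0.862 to 0.887 at gene ends, and for the same label at the other time 0.807 to 0.837. The order was thus replicates, then label, then time, and these 3 ranges did not overlap at gene ends. Elsewhere the label range was 0.552 to 0.692, which overlapped that of replicates, and the time range was 0.481 to 0.546. The index between times is also bounded by the unequal numbers of calls, and the part of list length in it was not tested.

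In WT cells, 1342 gene-end regions were called in both libraries at 0 h and in neither at 60 h, and 49 showed the reverse. Such regions are called lost and gained below, each value is for the region described and not for the other regions of the same gene, and counts stand with no test, since 2 against 2 libraries cannot pass one. The lost regions were 7.04% of the members, against 15.1% of all merged regions, and the gained ones 0.257%, against 0.654%. With an equal number of peaks in every library, the counts were 330 lost and 345 gained. Over all merged regions of that setting 5.89% were lost and 3.75% gained, so losses still exceeded gains there. The cause of this difference from gene ends was not tested. At 1 common depth the gene-end counts were 1194 lost and 62 gained. Leaving out a library raises such counts, since fewer libraries have to agree: losses rose to 2313 without WT 0 h replicate 1, and gains to 80 without that library, 117 without WT 0 h replicate 2, 183 without WT 60 h replicate 1 and 208 without WT 60 h replicate 2.

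The strongest WT losses were at genes of varied function. SHF, an SH2 domain adaptor, had a region inside the gene, 531 bp from its higher end, at chr1:126568887-126570126. Its −log10 q was 26.0 and 28.5 in the WT 0 h libraries and 33.2 and 29.0 in the CBP 0 h libraries, and no library at 60 h called it. By rank in the weakest calling library it was number 2 of the WT losses and number 3 of the CBP losses. Among the regions called at 0 h alone it was number 1. AP2S1, a subunit of the clathrin adaptor AP-2, had 26.5 and 26.7 in WT 0 h, no call in WT 60 h, and 3.08 in CBP 60 h replicate 2.

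MTRF1, a mitochondrial translation release factor, lost a region that covered its end at chr11:25638569-25639360, with 25.3 and 27.2 in WT 0 h. CSGALNACT1, which starts chondroitin sulfate chains, was called with 22.5 and 23.1 in WT 0 h and 8.01 and 6.11 in CBP 60 h, but in neither WT 60 h library. SAMD8, a sphingomyelin synthase relative, and PRDM4, a zinc finger protein, completed the 6.

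The 49 WT gains were weaker. VTA1, a factor of endosomal sorting, reached 12.4 and 7.32 in WT 60 h. PIGA, the enzyme that opens GPI anchor synthesis, had 10.7 and 9.30 at chrX:11887225-11887484 in WT 60 h and no call in the other 6 libraries, and the same held for HMX1, a homeobox gene, and DCTN2, a dynactin subunit. DPT and SERPINF1, which encode the secreted matrix proteins dermatopontin and PEDF, were gained in WT and were also called in both CBP 60 h libraries. DPT was called in both CBP 0 h libraries too, at 8.48 and 5.14, so that WT 0 h was the group without it.

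In CBP-labelled cells the balance was alike in size. Losses numbered 1326, or 6.95% of members, against 14.9% of all merged regions, and gains 94, or 0.493%, against 1.82%. There were 423 losses and 392 gains with equal peak numbers. Losses rose to 2395 without CBP 0 h replicate 2, and gains to 230 without CBP 0 h replicate 1, 301 without CBP 60 h replicate 1 and 317 without CBP 60 h replicate 2. Both labels lost 455 of the same regions, 33.9% of the WT losses and 34.3% of the CBP losses, with 37.7% and 38.2% over all merged regions. They gained 6 of the same, 12.2% and 6.38%, with 233 of 1168 and of 3247 over all merged regions.

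Most losses of a label were absent from the other label's 60 h libraries or found in one of them. Of the 1342 WT losses, 803 were called in neither CBP 60 h library, 316 in 1 and 223 in both. Of the 1326 CBP losses, 815 were called in neither WT 60 h library, 297 in 1 and 214 in both. The same split over all merged regions is not given here.

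The leading CBP losses included regions that at least 1 WT 60 h library called at a lower strength. SLC13A4, a sulfate transporter, had 44.8 and 37.0 in CBP 0 h and none in CBP 60 h, with 7.08 in WT 60 h replicate 2. STYK1, a pseudokinase, had 32.3 and 27.3 in CBP 0 h, none in CBP 60 h, and 14.0 and 8.40 in WT 60 h. GFOD2 and C1QTNF7 were called in both WT 60 h libraries, as STYK1 was.

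The leading CBP gains were mostly regions that WT cells held at some time. KHNYN, an antiviral RNA-binding protein, had 18.7 and 15.6 in CBP 60 h, and both libraries of WT 0 h and of WT 60 h called it. PRMT6, an arginine methyltransferase of histone H3, had 11 and 13.9 in CBP 60 h and 6.79 and 4.81 in WT 60 h. CHRDL2, an antagonist of BMP, had 14.0 and 11.2 in CBP 60 h and 3.19 and 3.50 in WT 60 h. ODF1, a sperm tail protein, was the exception: its region at chr4:34510060-34510826 had 14.4 and 15.5 in CBP 60 h and no call in the other 6 libraries. GIPC1, a scaffold protein, was called in 1 library of each WT group.

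CBP and WT libraries called nearly equal shares of the members. At 0 h the mean share was 86.8% in WT and 86.5% in CBP, and at 60 h 74.3% in WT and 75.3% in CBP (n = 2 each). Over both times the CBP share was 0.351 points higher (two-sided exact permutation p = 0.722, labels exchanged within each time). The CBP minus WT difference was 1.27 points larger at 60 h than at 0 h (two-sided exact permutation p = 0.556). Leaving out WT 0 h replicate 1 or CBP 0 h replicate 1 turned the first difference to -0.390 or -0.990 points, and leaving out WT 0 h replicate 2 or CBP 0 h replicate 2 turned the second to -0.168 or -1.23.

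At 0 h, CBP cells gained 185 gene-end regions against WT, 0.970% of members with 2.51% over all regions, and lost 238, 1.25% with 3.47% over all regions. Of the gained regions 128, or 69.2%, were called in no library at 60 h, and of the lost ones 132, or 55.5%, with 64.5% and 59.1% over all merged regions. Without WT 0 h replicate 1 the counts were 336 and 751, without WT 0 h replicate 2 they were 528 and 579, and without CBP 0 h replicate 1 they were 443 and 667. Gains were 811 without CBP 0 h replicate 2.

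LIN7C, a scaffold of cell junctions, led the losses at 0 h, with 20.6 and 21.4 in WT 0 h, 14.3 and 9.14 in WT 60 h, none in CBP 0 h, and 5.94 and 18.3 in CBP 60 h. USP8, a deubiquitinase of endosomes, had 19.5 and 16.7 in WT 0 h, and ZNF473 12 and 17.4, and no other group called either. GRIA1, a glutamate receptor subunit, and ATP13A2, a lysosomal transporter, were lost at 0 h and called in 1 and 2 CBP 60 h libraries. On the gained side CACYBP had 12.1 and 13.8 in CBP 0 h at chr9:117062885-117063131, and neither it nor MPP7, a polarity scaffold, nor S1PR2, a sphingosine 1-phosphate receptor, was called in another group.

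At 60 h, CBP cells gained 336 gene-end regions against WT, 1.76% of members with 4.01% over all regions, and lost 297, 1.56% with 3.19% over all regions. Of the gained ones, 191, or 56.8%, had been called in all 4 libraries at 0 h, and of the lost ones 204, or 68.7%. Over all merged regions these shares were 41.9% and 65.5%. Regions that no 0 h library called made up 38 of the gained and 15 of the lost, against 1504 of 6813 and 364 of 5405 for regions elsewhere. Gains were 629, 573, 735 and 794 and losses 573, 703, 496 and 496 without WT 60 h replicates 1 and 2 and CBP 60 h replicates 1 and 2, in that order.

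The leading losses at 60 h were regions called in the 6 other libraries. GDF15, a stress-induced cytokine of the TGF-beta superfamily, had a region over its higher end at chr2:59411078-59411524 with −log10 q of 16.3 and 17.1 in WT 0 h, 16.2 and 15.9 in WT 60 h, and 16.5 and 12 in CBP 0 h. CBP 60 h was the group without it. P2RX7, an ATP-gated channel, had 13.8 to 20.8 in the 6 libraries, and IER2, an immediate early gene, 10.8 to 25.2. BANF2, LAMTOR4, a component of the Ragulator complex, and DKKL1 showed the same pattern. The DKKL1 region also lay within 1 kb of an end of TEAD2, a transcription factor of the Hippo pathway.

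Among the leading gains at 60 h, HIBCH, an enzyme of valine breakdown, and SLC26A7, an anion transporter, were called in all 4 libraries at 0 h and missing from WT 60 h alone. HIBCH had 16.2 and 18.7 in WT 0 h, 10.2 and 7.88 in CBP 0 h, and 11.2 and 13.7 in CBP 60 h. HOXA7, at chr18:45417046-45417290, had 10.4 and 11.8 in CBP 60 h and 11.7 in CBP 0 h replicate 1, and no WT call. FTMT, mitochondrial ferritin, had 8.68 and 13.3 in CBP 60 h and weak calls in 1 library of each 0 h group.

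Few gene-end regions separated the times or the labels in 4 of 4 libraries. At 0 h alone, 455 were called in 4 of 4, 2.39% of members with 5.68% over all regions. At 60 h alone there were 6, 0.0315% with 0.131%. The labels shared 11 regions called in the 4 CBP libraries alone, 0.0577% with 0.2%, and 22 in the 4 WT libraries alone, 0.115% with 0.226%. Their peaks were mostly among the weaker ones of each list, with median within-list percentiles of 27.4 to 31.9. Regions elsewhere with the same 4 patterns had 28.5 to 35.4, and members called in all 8 libraries had 88.2.

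Members called in all 8 libraries lay closest to the gene boundary among the patterns compared. The median distance from the summit to the end was 169 bp for the members called in all 8 libraries, 720 bp for those called at 0 h alone and 863.5 bp for those called in WT alone. It was 222 bp for the 6 regions of 60 h alone and 393 bp for the 11 of CBP alone. A summit lay within 200 bp of the end for 52.7% of the members called in all 8 libraries, 15.8% of those of 0 h alone and 9.09% of those of WT alone, which is 2 of 22. The distance was not particular to these patterns. Members called in 1 library had a median of 591 bp and 16.5% within 200 bp, and WT losses over time had 663.5 bp and 18.3%.

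The regions of 60 h alone were at HRH3, a histamine receptor, PLXNB2, a semaphorin receptor, TNIP1, an inhibitor of NF-kB signalling, PLEC, the cytolinker plectin, C16H5orf38 and a gene with a LOC symbol. TNIP1 had 7.67 and 9.58 in WT 60 h and 8.97 and 3.46 in CBP 60 h at chr16:71925769-71926573. PLEC had 5.62 and 6.87, and 3.07 and 8.05. The C16H5orf38 region, at 6.56 and 2.39 in WT 60 h and 3.88 and 5.64 in CBP 60 h, was also near IRX2, a homeobox gene. With equal peak numbers the 5 named regions were still called in the 4 libraries at 60 h and in none at 0 h. With −log10 q of at least 5, none of the 5 kept the full difference in share of libraries called. HRH3, TNIP1 and PLEC then kept 0.75, and PLXNB2 and C16H5orf38 0.5.

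Of those called at 0 h alone, the strongest after SHF were at IFN-DELTA-3, RFTN2, STON1, ALDH1A1 and SRP19. ALDH1A1, an enzyme of retinoic acid synthesis, had 15.3, 15.4, 21.2 and 18.6 in the 4 libraries at 0 h, in a region 985 bp from its lower end. SRP19, a protein of the signal recognition particle, was covered at its lower end, with 14.4 to 16.1. Among CBP alone, AQP9, a channel for water and glycerol, had 17.9 and 7.08 at 0 h and 10.3 and 10.2 at 60 h at chr1:113848457-113849244.

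The other CBP regions named were at BCAS1, EGFLAM, SLC39A4, a zinc transporter, MTCH2, of the outer mitochondrial membrane, and BMF, a BH3-only inducer of apoptosis. The strongest peak among these 5 had 11.4, at EGFLAM. Among WT alone were CHRNA1, the alpha subunit of the muscle acetylcholine receptor, with 6.65 and 10.4 at 0 h and 6.22 and 6.30 at 60 h, and TPM4, a tropomyosin of the cytoskeleton, with 7.05 to 8.94. PINK1, a kinase of mitochondrial quality control, TRIOBP, TSPAN18 and GOLPH3L completed that set. With equal peak numbers, TSPAN18 and CHRNA1 kept 0.75 and PINK1 0.5 of the difference in share of libraries called, and BCAS1, SLC39A4 and MTCH2 0.75 and BMF 0.5. With −log10 q of at least 5, GOLPH3L and MTCH2 kept 0.75 and BMF 0.

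The labelled cell type was checked at gene ends. PAX7, the defining transcription factor of satellite cells, had 1 region over its lower end, at chr6:77160337-77161838. Its −log10 q was 19.2 and 21.6 in WT 0 h, 13.0 and 9.13 in WT 60 h, 16.6 and 19.1 in CBP 0 h, and 20.5 and 14.8 in CBP 60 h. MYF5, which commits cells to the muscle lineage, had 15.3 to 31.2 in a region that reached both of its ends at chr5:100753959-100756624. MYOD1, the central myogenic regulator, had 17.8 to 42.6 in a region of 2500 bp over both ends at chr2:41422502-41425001. The 8 libraries called all 3.

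A second MYOD1 region, 242 bp outside its lower end, was called in WT 0 h replicate 2 at 8.5 and in CBP 0 h at 7.87 and 10.8, and not at 60 h. MYOG, which drives terminal differentiation, had 3 weaker regions. The one over its higher end, at chr9:113784734-113785790, had 7.62 and 13.4 in WT 0 h, 4.28 in WT 60 h replicate 2 alone, 5.68 and 3.24 in CBP 0 h, and 8.61 and 8.25 in CBP 60 h. CREBBP had 2 regions and EP300 1, and the 8 libraries called each. The stronger CREBBP region ran from 25.3 to 43.5 and the EP300 region from 30.4 to 54.7.

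**Figure D5:**
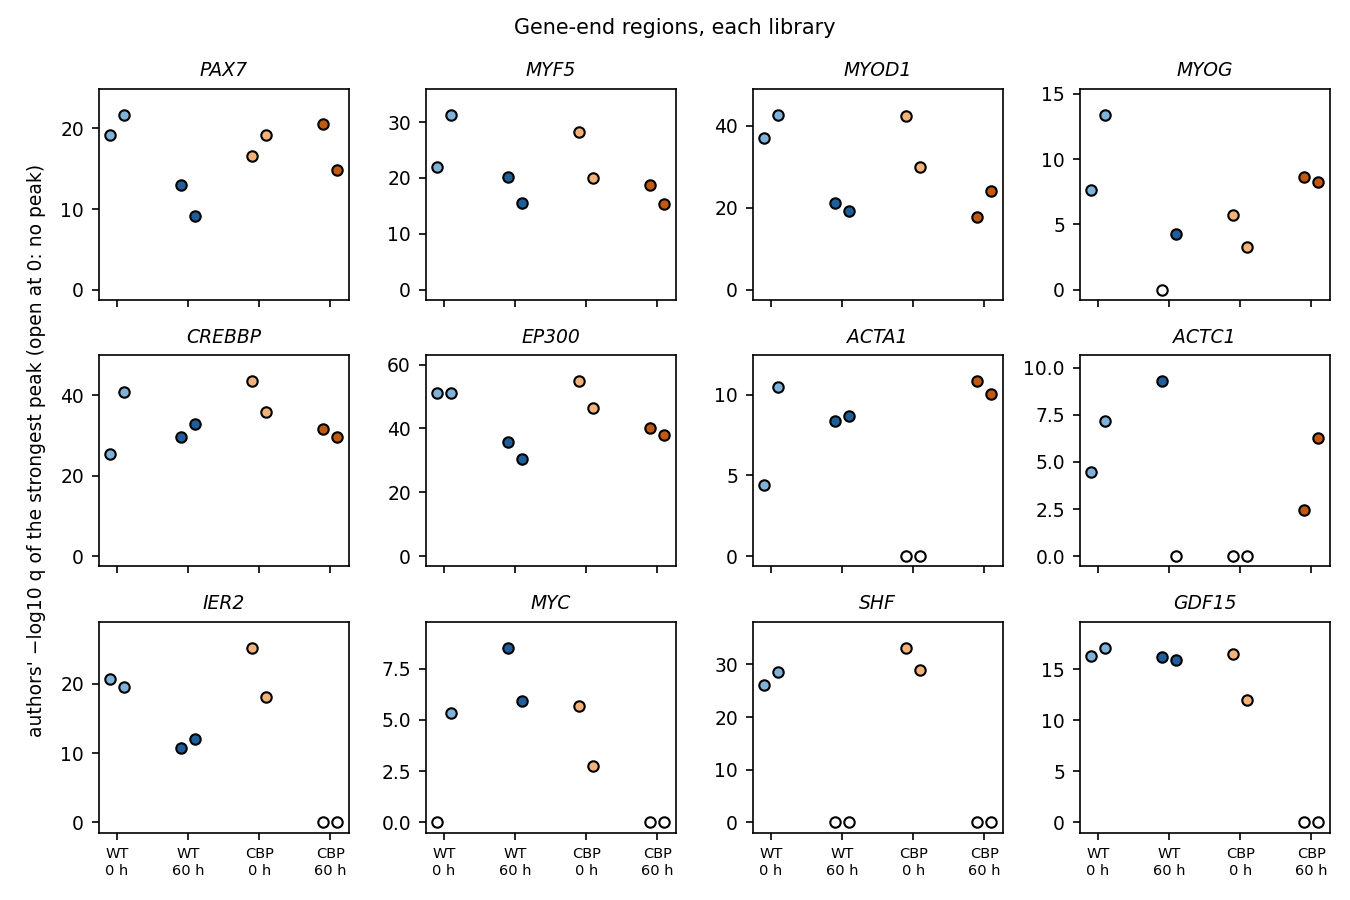
Authors' −log10 q of the strongest peak (vertical axis) in each of the 8 libraries, by group (horizontal axis), for 1 region of each gene described in the text, with open circles at 0 where a library called no peak in it. The regions shown for PAX7, MYF5, MYOD1, CREBBP and EP300 are called in 8 libraries, those for ACTA1 and ACTC1 are not called in CBP 0 h, and those for IER2, MYC and GDF15 are not called in CBP 60 h.

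Most other myogenic regulators had an open end as well. An end was called in all 8 libraries for 11 of 14 genes of that list, or 78.6%, beside 67.5% of all genes. PAX3, SIX4, EYA1, MEF2D, TEAD1 and TEAD4 were among them. By region the list stood lower, with 10 of 19, or 52.6%, called in all 8 libraries, beside 65.8% of all gene-end regions. MYF6 and MEF2C were called in 7 libraries and MEF2A in none. Of the list's 19 regions none was gained, none was lost in WT, and 2, or 10.5%, were lost in CBP between the times. The share lost in CBP was 6.95% of all gene-end regions and 14.9% of all merged regions. The 2 losses were the second MYOD1 region and one at MYF6, with 7.21 and 8.16 in CBP 0 h and 3.46 in WT 60 h replicate 1. The list had no loss and 1 gain in CBP with equal peak numbers.

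Markers of other cell types were open to varying degrees. An end was called in all 8 libraries for 5 of 11 endothelial markers, 5 of 11 immune markers, 5 of 8 neural and Schwann markers and 1 of 9 keratinocyte and liver genes. The count was 16 of 21 for fibroblast and matrix genes and 11 of 13 for adipogenic genes, and the share over all genes was 67.5%. No library called an end of CDH5, TIE1 or EMCN of endothelium, of CSF1R or LYZ of myeloid cells, of SOX10 of Schwann cells, of ADIPOQ or FABP4 of fat cells, or of PDGFRA of fibroblasts. By comparison PECAM1 and KDR of endothelium, CD14 and SPI1 of myeloid cells, COL1A1, LUM and TCF21 of fibroblasts, and PPARG, CEBPA, PLIN1 and LPL of fat cells were called in 8 libraries. The mean share of the endothelial regions called was 83.3% in WT 0 h, 55.6% in WT 60 h, 83.3% in CBP 0 h and 72.2% in CBP 60 h, over 9 regions. An open gene end does not give a level of RNA, and the part of other cell types in the results was not tested.

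Genes of satellite cell maintenance and of the Notch pathway, which holds satellite cells undifferentiated, lost 4 of 31 regions in WT and 4 in CBP, 12.9% in each, and gained none between the times. The share lost was 7.04% and 6.95% of all gene-end regions and 15.1% and 14.9% of all merged regions. NOTCH2 had 12.3 and 9.65 in WT 0 h, 8.69 and 7.08 in CBP 0 h, and no call at 60 h, in a region at chr4:100950486-100951054. A NOTCH3 region was lost in WT, and was called in CBP 60 h at 5.33 and 3.26. Loss in WT also touched HEYL, a Notch target, and ITGB1, a laminin receptor subunit. In CBP the other 3 were DLL1, a Notch ligand, SDC3 and ITGA7. Between the times 1 of the list's regions was lost in WT and none in CBP with equal peak numbers.

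Sarcomere and contraction genes had 52 regions, 25 of them called in all 8 libraries. That is 48.1%, with 65.8% of all gene-end regions and 28.3% of all merged regions. None was gained in WT, 3 were lost in WT, and 2 were gained and 6 lost in CBP between the times. The losses were 5.77% and 11.5% of the list, with 7.04% and 6.95% of all gene-end regions and 15.1% and 14.9% of all merged regions. With equal peak numbers the balance turned: 1 was gained and none lost in WT, and 4 were gained and 1 lost in CBP. ACTA1, the actin of skeletal fibres, had a region over its lower end at chr14:60412041-60413228 with 4.43 and 10.4 in WT 0 h, 8.35 and 8.69 in WT 60 h, no call in CBP 0 h, and 10.8 and 10.0 in CBP 60 h. A region at ACTC1, the actin of heart and of young muscle, had 4.48 and 7.20 in WT 0 h, 9.28 in WT 60 h replicate 1, no call in CBP 0 h, and 2.45 and 6.29 in CBP 60 h.

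Both actin regions were thus lost in CBP 0 h against WT 0 h and gained in CBP 60 h against CBP 0 h. With equal peak numbers or with −log10 q of at least 5, 1 of the 2 WT 0 h libraries called the ACTA1 region. For ACTC1 neither WT 0 h library called it with equal peak numbers. Other regions at the ends of both genes were called in the libraries without these, so that 8 libraries called some region of each.

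Losses of that list in WT were at MYOM1, an M-band protein, MYBPC1, myosin-binding protein C, and TCAP, the titin cap. A second MYBPC1 region, with 22.7 and 22.7 in WT 0 h and 12.3 and 3.29 in WT 60 h, was lost in CBP 60 h, as was RYR1, the calcium release channel. An end was called in 8 libraries for 24 of the list's 33 genes, or 72.7%, with 67.5% of all genes. The fast fibre genes MYLPF, TNNI2, ACTN3, MYBPC2 and CASQ1 were among the 24. No library called an end of MYH1, MYH2, TNNT2, TNNT3, CKM, ATP2A1 or LMOD3. MYMK, which encodes the fusion protein myomaker, was called in WT 0 h replicate 2 at 5.66, in WT 60 h at 6.86 and 5.12, in neither CBP 0 h library, and in CBP 60 h at 3.84 and 5.51.

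Cell cycle genes kept an end called in 8 libraries in 26 of 26 cases, with 67.5% of all genes. Of their 42 regions 2 were lost in WT and 5 in CBP, which is 4.76% and 11.9%, with 7.04% and 6.95% of all gene-end regions. MKI67, the proliferation marker Ki-67, had a region with 16.3 and 14.6 in WT 0 h, 18.2 and 15.9 in CBP 0 h, 3.22 in WT 60 h replicate 2 and no call in CBP 60 h. CCND1, cyclin D1, had 11.12 and 13.5 in WT 0 h, 10.49 and 10.54 in CBP 0 h, 5.69 and 1.81 in WT 60 h, and no call in CBP 60 h. The region is at chr2:3619485-3621047, and the MKI67 region at chr14:137265612-137267265. RB1, the retinoblastoma protein, and PLK1, a mitotic kinase, each lost a region in both labels, and CCND3, cyclin D3, in CBP. None of the list's regions was lost in WT and 2 were in CBP when peak numbers were equal.

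Immediate early and AP-1 genes, which respond within minutes to growth factors and stress, had an end called in 8 libraries in 19 of 20 cases, with ATF3 the exception. Over all genes that share was 67.5%. Of their 34 regions, 1 was lost in WT and 4 were lost and 1 gained in CBP between the times. The losses were 2.94% and 11.8%, with 7.04% and 6.95% of all gene-end regions. With equal peak numbers 3 were gained and none lost in WT, and 1 was gained and 1 lost in CBP. CBP 60 h lacked 3 that WT 60 h held, at JUN, IER2 and MYC, and the count was 3 with equal peak numbers too. That is 8.82% of the list's regions, with 1.56% of all gene-end regions and 3.19% of all regions lost in the comparison, a description that no test accompanies.

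A MYC region had 5.36 in WT 0 h replicate 2, 8.52 and 5.91 in WT 60 h, 5.69 and 2.75 in CBP 0 h, and no call in CBP 60 h. The region at JUN, a subunit of AP-1, was weak, with 3.71 to 6.14 in the 6 other libraries, and with −log10 q of at least 5 it was called in neither group at 60 h. A region at EGR1, a zinc finger factor of the same response, went the other way, with no call in CBP 0 h and 11.14 and 8.61 in CBP 60 h, and WT 60 h had 10.1 and 7.86.

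Genes of TGF-beta and BMP signalling, which restrain myogenic differentiation, had 33 regions, of which 1 was lost in WT and 3 were lost and 1 gained in CBP. The losses were 3.03% and 9.09% of the list, with 7.04% and 6.95% of all gene-end regions. With equal peak numbers 1 was gained and none lost in WT, and 1 was gained and 1 lost in CBP. ID1, a target of BMP that blocks MYOD1, had 1 region called in all 8 libraries and another with 7.60 and 5.23 in WT 0 h, 9.45 and 7.93 in CBP 0 h, and no call at 60 h. SMAD2, a signal transducer, gained a region in CBP 60 h at 5.47 and 6.58 that no other group called.

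Fibroblast and matrix genes had 28 regions, with 3 lost in WT, or 10.7%, and none in CBP, beside 7.04% and 6.95% of all gene-end regions and 15.1% and 14.9% of all merged regions. A region at POSTN, periostin, had 7.09 and 8.06 in WT 0 h, no call in WT 60 h, 15.4 and 6.18 in CBP 0 h, and 6.05 and 6.60 in CBP 60 h. DCN, decorin, had a region with 5.99 and 4.15 in WT 0 h and no call elsewhere, and LOX, lysyl oxidase, had 1 region called in all 8 libraries and another called in WT 0 h and in CBP 60 h replicate 2. With equal peak numbers none of the list was lost between the times in either label.

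Genes that most cells use were open nearly throughout. An end was called in 8 libraries for 14 of 14 respiratory chain genes, for 23 of 23 housekeeping genes and for 17 of 19 acetyltransferase and bromodomain genes, with KAT6B and NCOA2 called in none. Over all genes that share was 67.5%. Of 17 respiratory chain regions 15 were called in all 8 libraries, and of 25 acetyltransferase and bromodomain regions 21, with 65.8% of all gene-end regions. Even so, NCOA3, a steroid receptor coactivator, had a region with 20.7 and 18.6 in WT 0 h and no call in WT 60 h. Cytosolic ribosomal protein genes had 2 of 42 regions, or 4.76%, lost in WT and 5, or 11.9%, in CBP, with RPL7A, RPL13A, RPS2 and RPS3 among the latter. The shares lost were 7.04% and 6.95% of all gene-end regions and 15.1% and 14.9% of all merged regions. With equal peak numbers none of that list was lost in WT, and 3 were lost and 1 gained in CBP. GAPDH, the glycolytic enzyme, had a region with 4.39 to 13.3 in 6 libraries and no call in CBP 60 h.

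A lost region did not always leave a gene without an open end. Among the list genes with a lost region, 12 of 24 in WT and 26 of 36 in CBP had another gene-end region that all 8 libraries called. Over all protein-coding genes, 503 had an end called in both WT 0 h libraries and none at either end in WT 60 h, and 12 the reverse. In CBP the counts were 440 and 29. Between CBP and WT they were 63 and 60 at 0 h, and 113 and 181 at 60 h. Summed over the 17 lists, in which a few regions count more than once, 25 regions were lost and none gained in WT, and 37 were lost and 5 gained in CBP, while with equal peak numbers the counts were 3 and 9 in WT, and 8 and 15 in CBP.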

How the data were processed

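Peak lists of 8 ATAC-seq libraries were used. Per the submitters' processing notes, Trimmomatic and MACS2 2.1.0 were used with the Sscrofa11.1 build; for the aligner and the peak threshold, the sources used here give none. The deposited columns are a score per peak, the fold enrichment at the summit (a ratio), and −log10 p and −log10 q, each the authors' own value; the lowest deposited −log10 q was 1.30. These values describe and rank peaks within a list, and groups were compared by calls. The files give 1 list per library.

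Merging, distances, permutation tests and figures were computed in Python 3.11.15 with numpy 2.4.6, pandas 2.3.3, scipy 1.17.1 and matplotlib 3.10.9, and were tested on simulated peak lists. A call is an overlap of at least 1 bp. A peak at a gene end is a peak of a member region, and list pairs were compared after division of each list into 10 classes of −log10 q. Depth was recovered by solving fold and p for pileup and local background; at least 99.9993% of peaks in a library gave a whole pileup (tolerance 0.01 in −log10 p), and relative depth is the most frequent background. Precision is limited by 2 libraries per group.

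Named genes, symbols beginning LOC left out, were the 6 gained and 6 lost per comparison, the 6 per 4-of-4 pattern and the 6 in all 8 libraries with the highest rank in their weakest calling library, the 5 widest, up to 4 per list and comparison among 17 gene lists (304 of 329 entries matched a symbol), and PAX7, MYF5, MYOD1, MYOG, CREBBP and EP300. Among the regions of 60 h alone, 5 had such a symbol. Members and lists were chosen with earlier results of these data known. Equal peak numbers, −log10 q of at least 5, 50% coverage, 500 bp, a replicate block, leaving out each library and 1 common depth were tried. Replicate differences in strength showed no pairing by replicate number: their correlations between groups were -0.025 to 0.025, over the 50575 regions called in all 8 libraries. Such values cannot tell whether libraries of 1 replicate number shared a culture, animal or batch. No genome sequence was used. Some genes that the rule names are not reported here.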

Additional observations from a re-analysis of the deposited data

Results flagged for a closer look

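Gene-end regions moved in opposite directions between the times in the 2 labels in 8 cases, and the difference was not tested. WT gained and CBP lost 2, at PTGS1, cyclooxygenase 1, and at CLN8. The PTGS1 region had −log10 q of 2.2 and 3.3 in WT 60 h and 5.2 and 5.8 in CBP 0 h. WT lost and CBP gained 6, at TP53BP1, a DNA repair factor, B3GNT4, TTC21B, GMEB2, TMEM209 and LOC106506082. The TP53BP1 region had 6.0 and 6.6 in WT 0 h and 6.2 and 9.0 in CBP 60 h, and no call in WT 60 h or CBP 0 h. Over all merged regions the counts were 34 and 102.

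Peaks outside chromosomes 1 to 18 and X were left out of the comparisons. They numbered 825 to 1267 per library, the fewest in WT 60 h replicate 2 and the most in CBP 0 h replicate 1, and 13 to 22 of them were on chromosome Y. They are given as signal outside the measurement described, since all 8 libraries hold some and the design has no control for them.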

How the results depend on the processing

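With equal peak numbers, members called per library were 85.75 more at 60 h, the CBP to WT change was -0.295 points, and counts gained and lost were 345 and 330 in WT and 392 and 423 in CBP over time. With −log10 q of at least 5, gains over time were 30 in WT and 59 in CBP. With 50% of a region covered, losses over time were 2207 in WT and 2050 in CBP, and gains of CBP at 0 h were 284. Within 500 bp of a gene end, losses were 830 in WT and 822 in CBP over time, 127 in CBP at 0 h and 197 in CBP at 60 h, where fewer regions are members by construction. The cause of the other shifts was not tested. At 1 common depth, a setting chosen after seeing the data, no count of gained or lost regions moved by over 1.5 times and no test changed sides of its threshold, while CBP against WT was 0.655 points and its change over time 0.700 points.

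With a replicate block, members called per library fell by 2265, the gap rose by 12.98 points and the width fell by 140.75 bp, each at an exact permutation p of 0.125, the smallest that 16 arrangements allow, so the block could not pass a threshold here. The replicate numbers did not pair the libraries, with correlations of -0.025 to 0.025.

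Leaving out 1 library at a time gave -2444 to -2196 for members called, 12.84 to 14.6 points for the gap, -159 to -122 bp for the width, -0.990 to 1.61 points for CBP against WT and -1.23 to 4.001 for its change. Gains were 49 to 208 in WT and 94 to 317 in CBP over time, 184 to 811 in CBP at 0 h and 336 to 794 at 60 h. Losses were 1343 to 2313, 1321 to 2395, 237 to 751 and 298 to 703 in the same order. Members called in all libraries numbered 12528 to 12799. Of 157 gene and comparison pairs named, 66 kept less than their full difference in share of libraries called with equal peak numbers, 50 with −log10 q of at least 5 and 7 at 1 common depth, and none changed sign. Gene starts against the other ends, and sequence at promoters, were not run, since the gene table used gives no strand and no sequence was used. At 1 common depth members called fell by 2000.25 from 0 h to 60 h, and how far depth limits the weak peaks was not tested further.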
